A study of Mus musculus with 8 samples.

Results

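The 8 genes described here are surface and identity markers of mural cells, the pericytes and smooth muscle cells that cover blood vessels: *Cspg4*, *Cd248*, *Mcam*, *Abcc9*, *Kcnj8*, *Vtn*, *Atp13a5* and *Higd1b*. They were taken by name as mural cell markers outside the PDGF, RGS and Notch families, and all 8 were found by symbol among the 54532 gene identifiers of the count files. RNA was sequenced from 8 primary cultures of wild-type mouse brain pericytes, of which 4 had received vehicle and 4 had received TGF-β1, a secreted cytokine (5 μg/mL as the submitters give it, a high dose for this cytokine that could not be checked here), both for 48 h. According to the study's methods, the cells were isolated with papain, grown through several passages in serum-containing medium and then kept in a pericyte medium, so the levels are those of expanded cultures and not of pericytes on vessels. The methods also state that 4 separate isolates received both treatments, but the labels do not tie a treated culture to a vehicle culture, so the groups were compared as unpaired. The sex, age and strain of the mice are not given in the labels. The totals ran from 45255235 to 47651397 counts per culture. Levels are given as CPM, counts scaled by library size with TMM factors, and a count of 3 corresponded to between 0.0631 and 0.0658 CPM.

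Pericytes share a basement membrane with the endothelial cells they cover, and they are usually recognized by several markers at once, because none is restricted to them. *Cspg4* encodes the proteoglycan NG2, which spans the membrane and also marks oligodendrocyte precursors. *Cd248* encodes endosialin, a C-type lectin-like receptor of pericytes and fibroblasts, and *Mcam* encodes CD146, an adhesion molecule of the immunoglobulin family found on mural and endothelial cells. *Kcnj8* and *Abcc9* encode Kir6.1 and SUR2, the pore and the regulatory subunit of the ATP-sensitive potassium channel of vascular mural cells. *Vtn* encodes vitronectin, a secreted adhesive glycoprotein, *Atp13a5* a P5-type transport ATPase, and *Higd1b* a small mitochondrial membrane protein of the HIG1 family. In the brain, transcripts of *Kcnj8*, *Abcc9*, *Vtn*, *Atp13a5* and *Higd1b* are commonly used to pick out pericytes.

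The 3 surface markers *Cspg4*, *Mcam* and *Cd248* were higher with TGF-β1, *Atp13a5* was lower, *Higd1b* did not pass the test, and *Abcc9*, *Vtn* and *Kcnj8* were too low to judge. *Cspg4* and *Mcam* rose by 2.04-fold and 1.92-fold, *Cd248* went from 156.9 to 179.8 CPM, and *Atp13a5* went to 0.415 of its vehicle level. Of the 22544 genes that passed edgeR's filter on low counts, 41.3% changed with TGF-β1 (20.9% higher and 20.3% lower) at an adjusted p under 0.05 (edgeR quasi-likelihood test, Benjamini-Hochberg adjustment). Changes in either direction were thus common in these cultures, and 3 rises and 1 fall among 5 tested genes are given as a description. The groups did not overlap for these 4 markers, which was also so for 37.9% of all genes tested. Increases as large as that of *Mcam* were less common, since 2.85% of the genes tested were called higher with at least its log2 fold change. For *Atp13a5*, 1.51% were called lower with at least its fall.

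**Figure D1:**
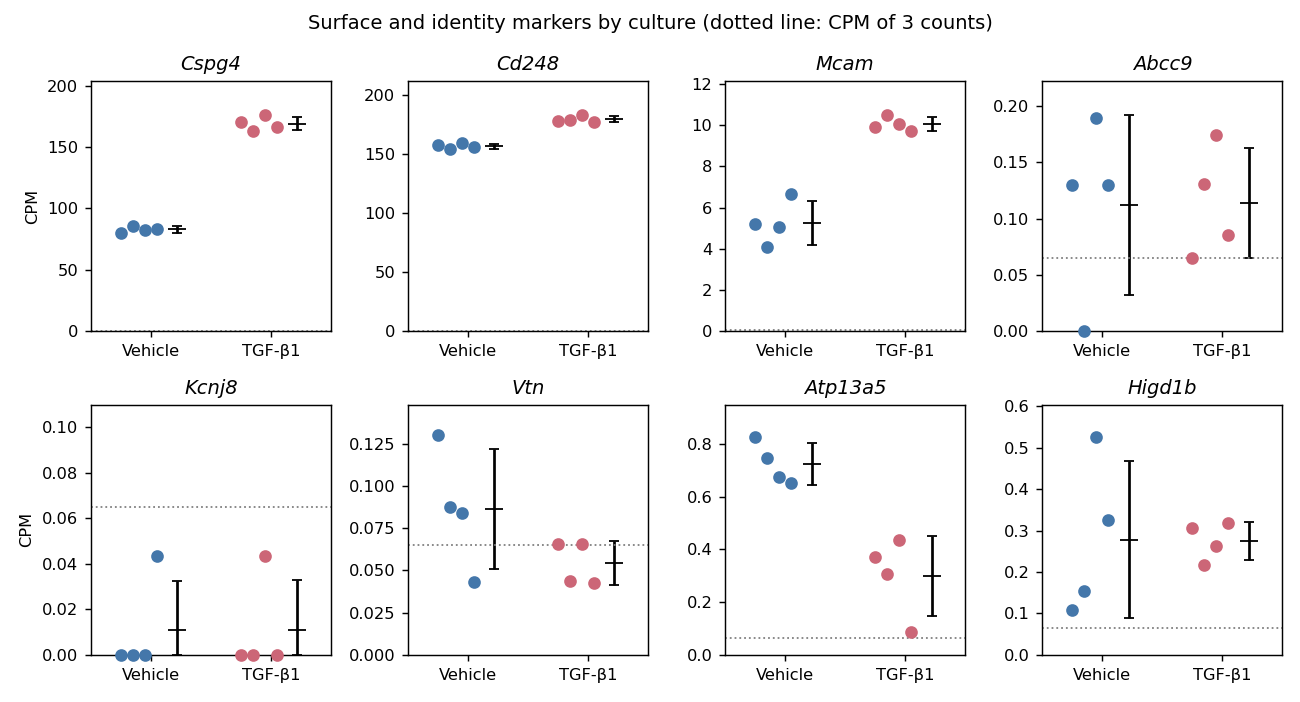
Level of each of the 8 markers in CPM (vertical axes start at 0 and differ between panels) in 4 vehicle cultures (blue points) and 4 TGF-β1 cultures (red points), with the mean and SD beside them (black, the lower bar stopped at 0) and the CPM of 3 counts as a dotted line. The groups are apart for *Cspg4*, *Cd248*, *Mcam* and *Atp13a5*, while *Abcc9*, *Vtn* and *Kcnj8* lie near or under the dotted line.

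Promoter windows of RefSeq (GRCm38.p6, 250 bases before to 50 after a start) were found for *Cspg4*, *Mcam*, *Abcc9*, *Kcnj8*, *Vtn* and *Atp13a5*. The part that lies upstream of the GENCODE M21 gene start is shown for the called markers among them, so that the flanks of the genes that rose and of the one that fell can be compared. Capitals mark matches on either strand to CAGACA (a SMAD element), TGGGAA (RBPJ), GGAATG (TEAD), GTAAACA (forkhead), GGGCGG (the GC box), TATAAA (the TATA box) or the CArG box. The first 2 sequences are from chr9:56864854-56865032 and chr9:44134408-44134468, both on the plus strand, and the third from chr16:29378733-29378982 on the minus strand.
Cspg4: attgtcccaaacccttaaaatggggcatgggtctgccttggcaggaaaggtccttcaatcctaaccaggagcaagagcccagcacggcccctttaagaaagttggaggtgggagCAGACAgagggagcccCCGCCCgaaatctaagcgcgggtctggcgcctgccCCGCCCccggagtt
Mcam: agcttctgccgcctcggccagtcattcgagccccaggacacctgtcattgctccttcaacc
Atp13a5: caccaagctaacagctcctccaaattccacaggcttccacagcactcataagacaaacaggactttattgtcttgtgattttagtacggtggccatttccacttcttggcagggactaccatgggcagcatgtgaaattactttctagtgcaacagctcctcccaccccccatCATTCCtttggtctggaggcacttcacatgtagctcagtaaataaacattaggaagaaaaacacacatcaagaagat

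In the whole windows of 300 bases, *Cspg4* had 1 match to CAGACA, which begins 136 bases before the RefSeq start, and GC boxes on the minus strand that begin 120 and 85 bases before it. *Mcam* had 5 GC boxes, all in the part that is not printed, and *Atp13a5* had 1 match to GGAATG. Of 32851 mouse windows, 21.0% held CAGACA, 35.7% the GC box and 14.7% GGAATG, so these matches are frequent. The windows of *Mcam* (72.7% G and C) and *Cspg4* (60.0%) were richer in G and C than that of *Atp13a5* (45.7%), where the median over all windows was 52.7%. These matches describe the letters only.

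*Cspg4* (ENSMUSG00000032911, GRCm38 chromosome 9, 56865033 to 56899870, plus strand) was counted over 11931 bases of exon. In the vehicle cultures it was at 79.9, 86.0, 82.8 and 83.0 CPM, and in the TGF-β1 cultures at 170.3, 163.3, 176.5 and 166.7 CPM. Every treated culture was far above every vehicle culture, and the spread within a group was small. The means were 82.9 ± 2.50 and 169.2 ± 5.62 CPM (SD, n = 4 each). The log2 fold change was 1.03 (standard error 0.03, 95% interval 0.97 to 1.09, edgeR adjusted p = 2.02e-30). These values rest on 3683 to 3932 counts per vehicle culture and 7500 to 8086 per treated culture.

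*Mcam* (ENSMUSG00000032135, chromosome 9, 44134469 to 44142727, plus strand) lies on the same chromosome as *Cspg4*, with 12722305 bases between the genes. Its level was 5.19, 4.08, 5.05 and 6.67 CPM with vehicle and 9.93, 10.5, 10.1 and 9.70 CPM with TGF-β1. The groups did not overlap, although the vehicle cultures varied among themselves more than the treated ones. The coefficient of variation was 20.4% with vehicle (186 to 308 counts) and 3.42% with TGF-β1 (455 to 483 counts). The mean went from 5.25 ± 1.07 to 10.1 ± 0.344 CPM (SD, n = 4 each), a log2 fold change of 0.94 (standard error 0.10, 95% interval 0.74 to 1.13, edgeR adjusted p = 1.53e-10). With each culture left out in turn it stayed between 0.84 and 1.07.

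*Cd248* (ENSMUSG00000056481, chromosome 19, 5068078 to 5070682, plus strand) is a gene of 1 exon. It was at 157.7, 154.2, 159.2 and 156.4 CPM with vehicle and at 178.5, 179.4, 183.7 and 177.6 CPM with TGF-β1. The groups were narrow and apart, so that a small difference exceeded the spread between cultures. The means were 156.9 ± 2.11 and 179.8 ± 2.69 CPM (SD, n = 4 each), and the log2 fold change was 0.20 (standard error 0.02, 95% interval 0.15 to 0.25, edgeR adjusted p = 4.96e-09). As a fold, its interval of 1.11 to 1.19 lay below those of *Mcam* (1.68 to 2.19) and *Cspg4* (1.96 to 2.12), and the last 2 overlapped each other.

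*Atp13a5* (ENSMUSG00000048939, chromosome 16, 29231851 to 29378732, minus strand) was the only one of the 5 tested markers that was called lower. It was counted 38, 34, 32 and 30 times in the vehicle cultures and 17, 14, 20 and 4 times in the TGF-β1 cultures. All treated cultures were below all vehicle cultures, and replicate 8, with 4 counts, was just above 3 counts. The mean went from 0.723 ± 0.0788 to 0.299 ± 0.153 CPM (SD, n = 4 each). The log2 fold change was -1.27 (standard error 0.33, 95% interval -1.93 to -0.61, edgeR adjusted p = 0.00141). Without replicate 8 it was -0.95 with an adjusted p of 0.0124. The level was low throughout, and per exon length only 4.56% of the genes tested were below it.

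*Higd1b* (ENSMUSG00000020928, chromosome 11, 102835849 to 102838040, plus strand) passed the filter with few counts, which were 5, 7, 25 and 15 with vehicle and 14, 10, 12 and 15 with TGF-β1. The vehicle cultures held both the highest and the lowest values, and the treated cultures lay between them. The means were 0.278 ± 0.190 and 0.276 ± 0.0459 CPM (SD, n = 4 each). The log2 fold change was -0.02 (standard error 0.41, edgeR adjusted p = 0.980). Its 95% interval ran from -0.85 to 0.82, a fold of 0.555 to 1.76, so a change within these limits was not detectable at this depth. Without vehicle replicate 3, which held the 25 counts, the estimate was 0.50 (adjusted p = 0.443). The sign also turned without vehicle replicate 4, TGF-β1 replicate 6 or TGF-β1 replicate 7, each left out alone.

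*Abcc9*, *Vtn* and *Kcnj8* failed the filter, and by the rule used here they are too low to judge. *Abcc9* (ENSMUSG00000030249, chromosome 6, 142587862 to 142702315, minus strand) was counted 6, 0, 9 and 6 times with vehicle and 3, 6, 8 and 4 times with TGF-β1, in total 21 in each group. The treated cultures lay within the range of the vehicle cultures (exact permutation test of the CPM, two-sided, unadjusted, p = 0.943). *Vtn* (ENSMUSG00000017344, chromosome 11, 78499091 to 78502324, plus strand) was counted 6, 4, 4 and 2 times with vehicle and 3, 2, 3 and 2 times with TGF-β1. No treated culture exceeded 3 counts, but the groups overlapped (the same exact test, p = 0.143). These were the 2 tests of this kind, and the smallest p that 4 against 4 cultures allow is 0.0286. When edgeR was run on every gene that any culture had counted at least 1 time, the 95% interval of the log2 fold change was -1.36 to 1.38 for *Abcc9* and -2.47 to 1.17 for *Vtn* (adjusted p = 1 and 0.713). Changes of 2-fold in either direction could thus not be excluded for *Abcc9* or *Vtn*.

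*Kcnj8* (ENSMUSG00000030247, chromosome 6, 142564837 to 142571614, minus strand) had 2 counts in vehicle replicate 4, 2 counts in TGF-β1 replicate 7 and 0 in the other 6 cultures. If counts are independent, a count of 0 allows up to 3 counts. Low counts here were mostly even, so that limit may be higher, and no fold is given. *Kcnj8* and *Abcc9* are neighbours, 16247 bases apart on the same strand with no protein-coding gene between them, and both subunits were near the limit of detection in both groups. The other subunits of ATP-sensitive potassium channels were also low. *Kcnj11*, which encodes the pore subunit Kir6.2, had 2 counts in each of 2 vehicle cultures and 0 elsewhere, and *Abcc8*, which encodes SUR1, had 2 to 14 counts (log2 fold change 0.26, standard error 0.45, edgeR adjusted p = 0.700).

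The 8 markers spanned a wide range of levels. Compared per kilobase of exon, the vehicle cultures held 60.2 ± 0.809 CPM per kilobase of *Cd248*, 6.95 ± 0.209 of *Cspg4* and 1.57 ± 0.320 of *Mcam* (SD, n = 4 each), and no culture of one overlapped the next. *Higd1b* followed at 0.329 ± 0.224, *Atp13a5* at 0.155 ± 0.0169, *Vtn* at 0.0425 ± 0.0175, *Abcc9* at 0.0134 ± 0.00955 and *Kcnj8* at 0.00425 ± 0.00850 CPM per kilobase. In this lower part the ranges of *Higd1b* and *Atp13a5*, of *Vtn* and *Abcc9*, and of *Abcc9* and *Kcnj8* overlapped. The order was the same with TGF-β1, where *Cd248* was at 69.0 ± 1.03, *Cspg4* at 14.2 ± 0.471 and *Mcam* at 3.00 ± 0.103 CPM per kilobase. There *Higd1b* (0.326 ± 0.0542) and *Atp13a5* (0.0642 ± 0.0327) no longer overlapped, whereas *Atp13a5* and *Vtn* (0.0267 ± 0.00638) did.

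**Figure D2:**
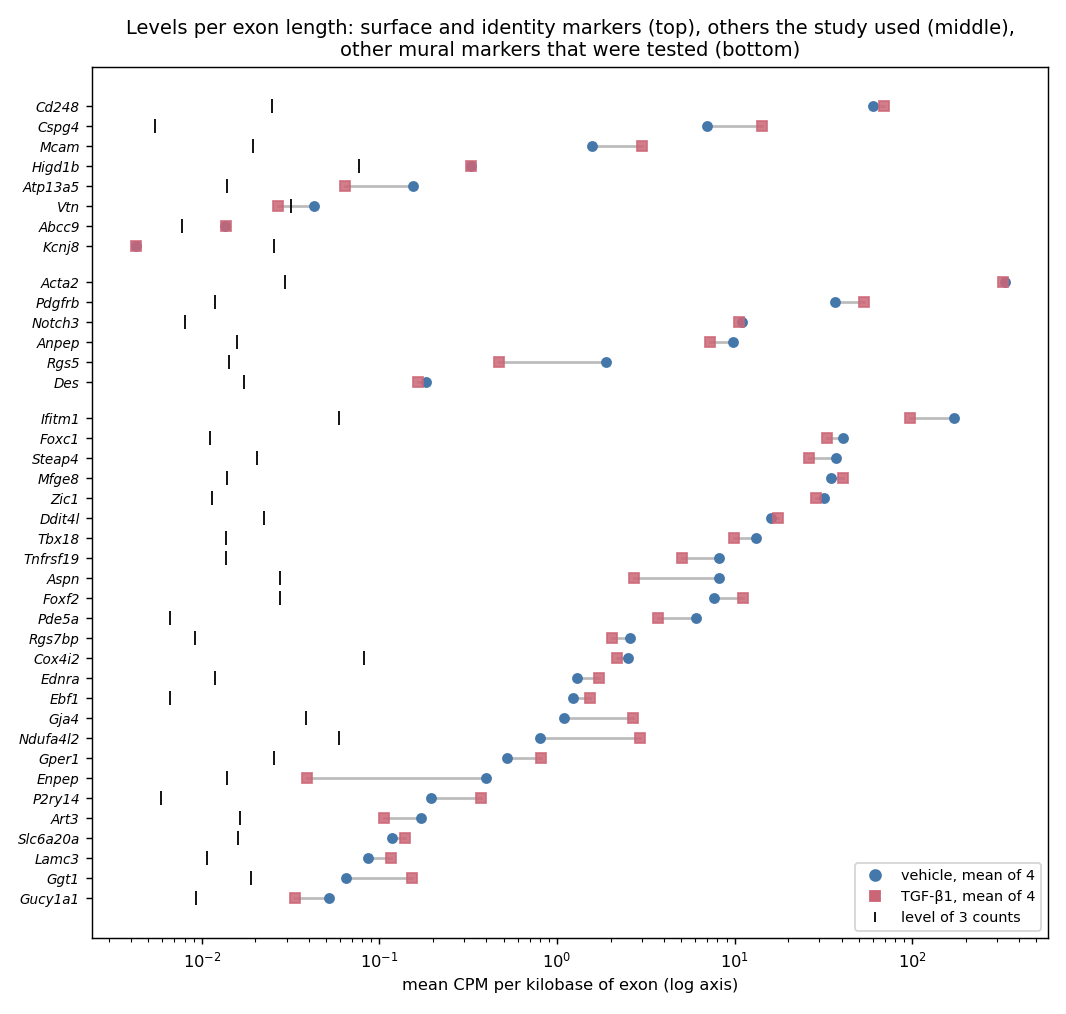
Mean level per kilobase of exon (log axis) of the 8 markers, of 6 other pericyte markers the study used and of the 25 other mural cell markers that were tested, in vehicle (blue circles, n = 4) and TGF-β1 (red squares, n = 4) cultures, with the level of 3 counts as a black tick. *Cd248*, *Cspg4* and *Mcam* are the highest of the 8, and *Abcc9* and *Vtn* lie near their tick and *Kcnj8* lies below it.

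Per exon length and over all cultures, *Cd248* was above 97.6% of the genes tested, *Cspg4* above 76.9%, *Mcam* above 46.0% and *Higd1b* above 14.6%. The 5 transcripts used to pick out brain pericytes were thus all in the low part of the range or under the filter. The study used *Cspg4* and *Cd248* among its pericyte genes too. Of its others, at the level of RNA or protein, 6 are compared here. Of those 6, *Acta2* (smooth muscle actin), *Pdgfrb* (the receptor for PDGF-B), *Notch3* and *Anpep* (CD13) were at 332.9, 36.9, 10.9 and 9.79 CPM per kilobase with vehicle. *Rgs5*, a regulator of G-protein signalling, was at 1.90 and *Des* (desmin) at 0.182 on that scale, the latter close to *Atp13a5*. Among these 6, *Pdgfrb* rose with a log2 fold change of 0.53 (95% interval 0.48 to 0.58, edgeR adjusted p = 1.26e-22). *Rgs5* fell by 2.02 and *Anpep* by 0.43 on the log2 scale. The fold changes of *Acta2* (-0.03), *Notch3* (-0.04) and *Des* (-0.14) did not pass the test. *Myh11* (smooth muscle myosin), which the study also used, was lower in every treated culture than in every vehicle culture. It did not pass the test (log2 fold change -0.47, 95% interval -0.90 to -0.04, edgeR adjusted p = 0.078).

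**Figure D3:**
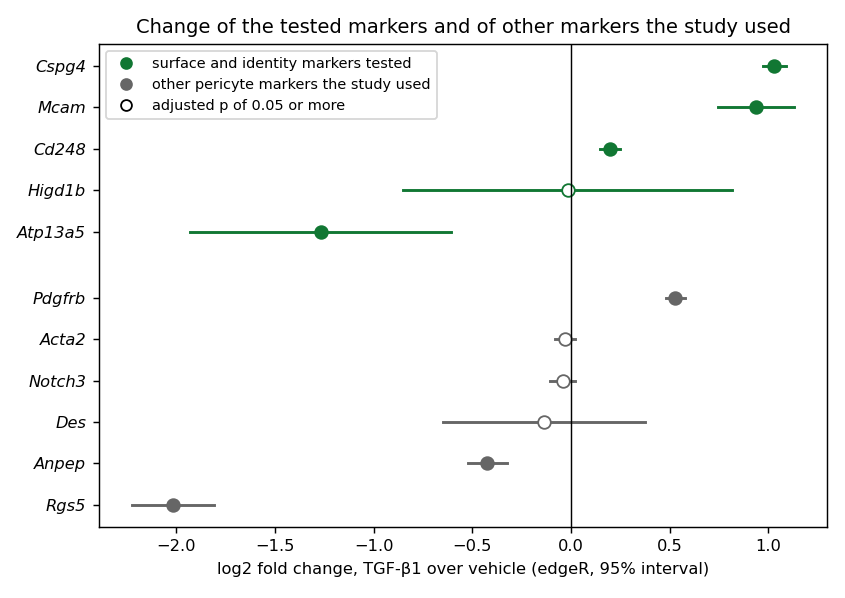
Log2 fold change of TGF-β1 over vehicle with its 95% interval (edgeR, n = 4 against 4) for the 5 surface and identity markers that were tested (green) and for 6 other pericyte markers the study used (grey), open circles marking an adjusted p of 0.05 or more. *Cspg4* and *Mcam* lie near 1, *Cd248* at 0.20, *Atp13a5*, *Rgs5* and *Anpep* to the left of 0, and the intervals of *Higd1b*, *Des*, *Acta2* and *Notch3* cross 0.

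A list of 29 other markers of brain mural cells moved in both directions, with 10 of the 25 tested higher, 10 lower and 5 not called (edgeR, adjusted p under 0.05), beside 20.9% higher and 20.3% lower over all genes tested. Its median log2 fold change was -0.16, where that of all genes tested was -0.01. The largest rises were *Ndufa4l2* (log2 fold change 1.85), *Gja4* (1.29), *Ggt1* (1.22), *P2ry14* (0.92) and *Gper1* (0.65), and the largest falls were *Enpep* (-3.34), *Aspn* (-1.59), *Ifitm1* (-0.83), *Pde5a* (-0.72) and *Tnfrsf19* (-0.69). *Gja4* encodes connexin 37 and *P2ry14* a nucleotide sugar receptor, whereas *Enpep* encodes aminopeptidase A, a surface enzyme of pericytes. *Slc38a11* and *Gucy1b1* were among those too low to be tested, as *Abcc9*, *Kcnj8* and *Vtn* were.

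Proteins known to bind the surface markers or vitronectin were counted as a group of 17 genes, of which 11 rose and 4 fell, beside 20.9% higher and 20.3% lower over all genes tested. The median log2 fold change was 0.29, against -0.01 over all genes tested. For vitronectin, whose own gene was near the limit, genes of its receptors were measured in every culture. *Itgb3* rose with a log2 fold change of 1.89, *Itgb5* with 0.96 and *Plaur*, the urokinase receptor, with 0.48. *Lgals3*, which encodes galectin-3, a ligand of NG2, rose with 0.68, and the fibronectin gene *Fn1* with 0.49. The collagen VI genes *Col6a1* and *Col6a2* fell by 0.47 and 0.52 on the log2 scale, while *Col6a3* rose with a log2 fold change of 0.21. *Lama4*, a chain of a laminin bound by CD146, fell by 0.48, while the laminin chains *Lamb1* and *Lamc1* rose with 0.29 and 0.16. *Mmrn2*, a ligand of endosialin, fell by 0.34. *Itga3* and *Mpdz* did not pass the test.

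The relatives of the markers did not all move alike. *Atp13a4* and *Atp13a3*, which lie near *Atp13a5* on chromosome 16 and on the same strand, fell by 0.68 and 0.18 on the log2 scale, and *Atp13a2* on chromosome 4 was not called (log2 fold change -0.12, edgeR adjusted p = 0.0631). That call turned with the setting, since the adjusted p was 0.0429 with library totals, 0.0398 with the filter of at least 1 count, 0.0252 without vehicle replicate 1 and 0.0327 without vehicle replicate 3. Without vehicle replicate 2 the log2 fold change was -0.058 (adjusted p = 0.437). *Atp13a3* was the abundant member of this family, at 48.9 CPM per kilobase with vehicle. Of the HIG1 family, *Higd1a* rose with a log2 fold change of 0.49, *Higd2a* was not called (0.08, adjusted p = 0.0851), and *Higd1c* had at most 1 count in any culture. *Higd2a* passed the test without vehicle replicate 1 (adjusted p = 0.0191) or without TGF-β1 replicate 7 (0.0394). Of the lectin family of *Cd248*, *Thbd* (thrombomodulin) fell by 1.13, *Cd93* was not called (0.06, adjusted p = 0.836) and *Clec14a* had at most 2 counts in any culture.

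Several of the markers are shared with other cells, so the markers of those cells are given beside them. In bulk RNA, fewer cells of a type and less RNA per cell cannot be told apart. For *Cspg4*, the oligodendrocyte lineage list summed to 4.43 to 5.91 CPM with vehicle and 5.64 to 6.33 CPM with TGF-β1, and *Olig1* and *Olig2* had at most 3 counts in any culture. In that list *Mbp* rose (log2 fold change 0.49) and *Sox10* fell (-1.09), and the part of such cells in the result for *Cspg4* was not tested. For *Mcam*, the endothelial list summed to 477.5 to 489.3 CPM with vehicle and 479.9 to 505.0 CPM with TGF-β1, of which *Cdh5* made up most at 374.9 CPM with vehicle. *Pecam1* was at 1.11 CPM in each group, and *Cldn5*, *Tie1*, *Erg*, *Emcn* and *Slco1a4* were too low to be tested. In the same list *Vwf* (log2 fold change 1.27) and *Flt1* (0.28) rose and *Tek* fell by 0.45, and their part in the result for *Mcam* was not tested. For *Cd248*, the fibroblast list summed to 6273 to 6460 CPM with vehicle and 7391 to 7737 CPM with TGF-β1. Of its 10 tested genes 4 were higher and 4 lower, beside 20.9% higher and 20.3% lower over all genes tested. The 4 higher were *Col1a1*, *Col3a1*, *Col1a2* and *Mgp*, and the 4 lower were *Apod*, *Fbln1*, *Dpt* and *Dcn*. *Col1a2*, the most abundant gene of the list, went from 2121 to 2852 CPM, and *Apod* from 932.4 to 172.1 CPM. The part of fibroblasts in the result for *Cd248* was not tested. The summed ranges of the astrocyte (172.3 to 182.4 CPM), neuron (6.21 to 7.11 CPM) and macrophage and microglia (102.5 to 108.6 CPM) lists lay close together in both groups. Single genes of each list were still called, where 20.9% of all genes tested were higher and 20.3% lower. Of 7 astrocyte genes tested, *Aldh1l1* (log2 fold change 0.77), *Slc1a3* (0.64) and *Slc4a4* (0.24) rose, and *Gjb6* (-3.97), *Slc1a2* (-1.24) and *Fgfr3* (-0.38) fell. Of the neuron list *Camk2a* rose (0.42) and *Gad1* fell (-1.24), and of the macrophage and microglia list *Csf1r* rose (0.73) and the other 6 tested were not called. *Tmem119* made up most of the macrophage and microglia sum, at 102.4 CPM with vehicle and 98.5 CPM with TGF-β1. *C1qa* and *C1qb* had at most 2 counts and *Aqp4* at most 6. The vascular smooth muscle list summed to 850.4 to 924.8 CPM with vehicle and 796.0 to 831.3 CPM with TGF-β1. Of its 8 tested genes, *Smtn* (from 125.1 to 61.6 CPM) and *Lmod1* (from 26.0 to 16.5 CPM) fell. *Actg2* rose, as did *Cnn1*, whose groups overlapped (edgeR adjusted p = 0.0486). *Acta2*, its most abundant gene, *Myh11*, *Tagln* and *Des* were not called.

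Beside the markers, 12 genes commonly induced by TGF-β were listed, of which 11 were matched by symbol. Of these, 10 were higher and 1, *Tgfbi*, was lower (edgeR, adjusted p under 0.05), beside 20.9% higher and 20.3% lower over all genes tested. The list was chosen with earlier results of these data known, so it is a description and cannot check the treatment labels. In a comparison with 16487 genes of at least 1 CPM on average, the log2 CPM of *Cspg4* over the 8 cultures was most like that of *Col1a1*, *4931406B18Rik* and *Nav2* (Pearson r = 0.998 for each). That of *Cd248* was most like *Ahr*, *Tram2* and *Tacc2* (0.996 to 0.999), and that of *Mcam* most like *Elavl1*, *Pla2g15* and *Pitrm1*. The values follow mostly from the step between the groups, which many genes share, since 1436 genes had an r over 0.95 with *Cspg4*, 1330 with *Cd248* and 479 with *Mcam*.

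Overlap and shared sequence were examined for all 8 markers. No base of exon of any of the 8 overlapped another gene on the same strand, and on the opposite strand 1.9% of *Abcc9* and 0.5% of *Mcam* did, where reads of both genes cannot be told apart unless strand was counted. Of the 50-base words in their transcripts, 0.61% of those of *Abcc9* and none of those of the other 7 occurred in transcripts of other genes.

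**Figure D4:**
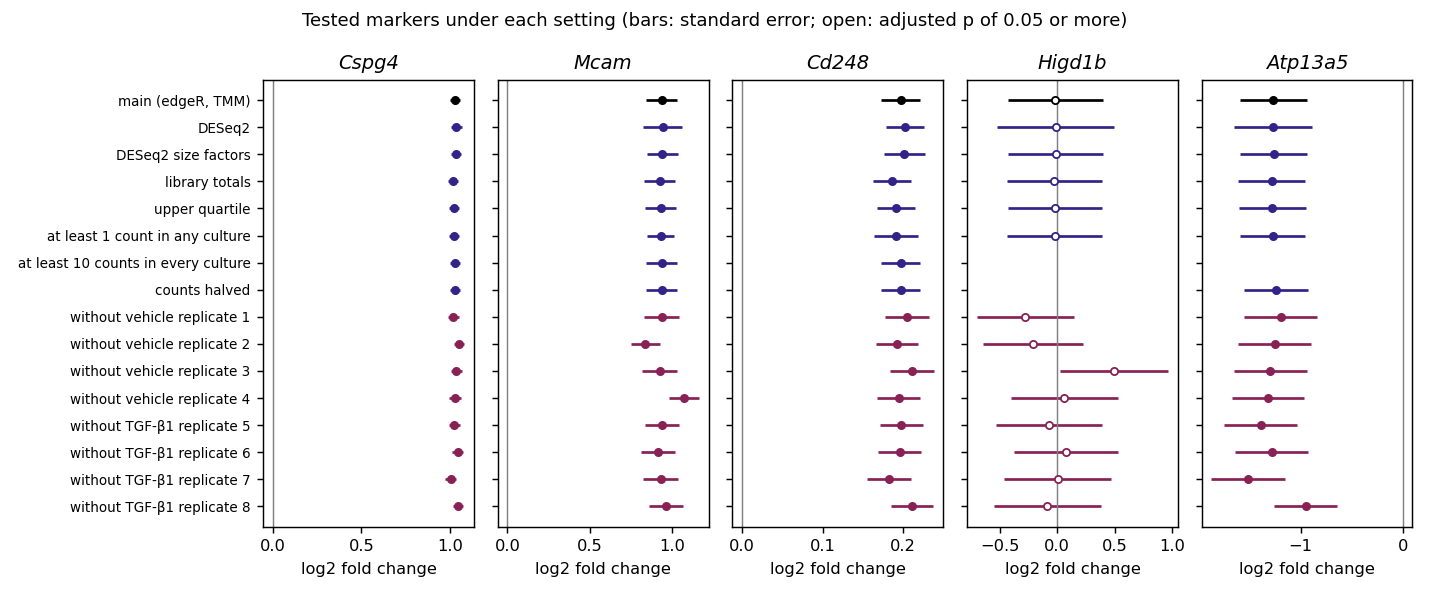
Log2 fold change with its standard error of the 5 tested markers under the main test (black), 7 other settings (blue) and with each culture left out (purple), open circles marking an adjusted p of 0.05 or more. *Cspg4*, *Mcam*, *Cd248* and *Atp13a5* stay on 1 side of 0 wherever they were tested, and *Higd1b* lies on both sides.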

How the data were processed

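Per the submitters' processing notes and the study's methods, the authors aligned reads to mm10 with STAR 2.7.5c in two-pass mode, removed PCR duplicates with SAMtools 1.15, counted reads per gene with featureCounts 2.0.3 and deposited raw counts, 1 library per culture. The strand setting and annotation release are not given in the sources used here. Low counts were mostly even (68.5% to 70.2% of counts from 1 to 20), so the number of fragments may be lower than the counts.

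Symbols, positions and exon lengths were taken from GENCODE M21 (GRCm38, the assembly of mm10). Counts were tested with edgeR 4.0.16 in R 4.3.3 (filterByExpr, TMM, robust quasi-likelihood test, Benjamini-Hochberg adjustment over 22544 genes, threshold 0.05), and the code was checked on simulated data. Intervals are 95% intervals from the model. Values per kilobase divide CPM by the union of exons. A gene was called too low to judge if it failed filterByExpr, or had under 10 counts in every culture. The 8 genes and the lists were chosen with earlier results of these data known. The text names the 8 genes, 6 other markers the study used, 4 small families, the 5 largest called rises and falls of the other mural list and the binding partners, the 3 genes most like each marker of at least 1 CPM, and genes of the cell type lists. *Plaur*, *Col6a3*, *Lamb1*, *Lamc1* and the cell type genes other than the most abundant of each list were named after their values were seen. Some genes of the lists are counted but not reported here by name. Within groups, pairs of cultures gave a chi-square of 1.14 to 2.10 per degree of freedom with each count halved. These values cannot show whether the cultures came from separate isolates. Each culture was kept as 1 replicate, following the labels. The study's methods speak of 4 independent isolates given both treatments, but neither they nor the labels used here tie cultures to animals. The p-values then measure only the spread between these cultures. Alternatives were DESeq2 1.42.0, other scalings and filters, halved counts and each culture left out.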

Additional observations from a re-analysis of the deposited data

Results flagged for a closer look

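Among 79 groups of 4 cultures checked (the 8 markers and 36 other named genes, where over 3 counts were seen), a single culture stood apart in 2, and about 3.95 would be met by chance (1 in 20). *Cd93* was at 1.16 CPM in TGF-β1 replicate 5, under the nearest culture at 1.48 CPM. In TGF-β1 replicate 7, *Enpep* reached 0.218 CPM, above the nearest at 0.175 CPM, a level of 8 to 10 counts per culture. None of the 8 surface and identity markers was among them.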

How the results depend on the processing

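*Cspg4*, *Mcam* and *Cd248* kept their direction and an edgeR or DESeq2 adjusted p under 0.05 under every alternative run, with log2 fold changes of 1.00 to 1.05, 0.84 to 1.07 and 0.18 to 0.21. *Atp13a5* did so wherever it was tested, from -1.51 to -0.95, but the filter of at least 10 counts in every culture removed it, so that 0 of the 8 genes were called lower there. That filter removes any gene whose fall leaves few counts in an arm. The estimate of *Higd1b* changed sign and ranged from -0.28 to 0.50 with each culture left out in turn (adjusted p 0.443 to 0.997), and it was not tested with halved counts or with at least 10 counts in every culture. *Abcc8* ranged from -0.074 to 0.55 in the same way. Over all genes, library totals as the only scaling moved the median log2 fold change by -0.01. No paired analysis was possible because the labels number the vehicle cultures 1 to 4 and the TGF-β1 cultures 5 to 8, with no number shared. The study's methods describe 4 isolates given both treatments, so the unpaired test may leave out a pairing. Low counts limit *Abcc9*, *Vtn*, *Kcnj8* and *Higd1b*, which had at most 9, 6, 2 and 25 per culture. For *Higd1b* the spread between the vehicle cultures is a further limit.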
